A study of Mus musculus with 6 samples.

Results

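Cytosolic ribosomal protein genes encode the proteins of the large and small subunits of the ribosome outside the mitochondria. Members were chosen by symbol alone: Rpl or Rps followed by a number, or Rplp for the stalk proteins, which took 84 of the 20591 genes in the expression table. Of these, 53 carried large subunit symbols and 31 carried small subunit symbols. The set held 76 core genes (46 large, 30 small), 6 paralogs of restricted or variable use (Rpl3l, Rpl7l1, Rpl22l1, Rpl36al, Rpl39l and Rps27l), and 2 near copies, Rpl6l, which RefSeq lists as a pseudogene, and Rpl32l. The rule left out ribosomal proteins with other symbols, such as Rpsa and Fau, whose values are given beside the members.

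B cells were sorted from mouse colons and their RNA was sequenced after treatment with lenvatinib, an inhibitor of VEGF, FGF and related receptor tyrosine kinases, or with DMSO, its solvent. Each treatment had 3 libraries, numbered as biological replicates. The series title places them in work on colitis and on B cell trafficking through intestinal vessels. The sources used here do not give strain, age, sex, dose, duration or sort markers, nor say whether each library came from its own mouse or whether all mice had colitis. The p-values below thus speak of variation among libraries that could in part be technical.

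Each ribosome carries 1 copy of most of these proteins, and cells make them at matched rates, since a subunit missing a protein is degraded or held back. Their mRNAs begin with a stretch of C and T letters, the terminal oligopyrimidine or TOP motif, through which the kinase mTORC1 and the RNA-binding protein Larp1 adjust their translation and stability. A B cell that is activated enlarges, makes more ribosomes and raises translation before it divides or becomes an antibody-secreting cell.

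Depth, recovered from the steps between low FPKM values, was 26635279 to 31655500 counted fragments per library. FPKM is the number of fragments relative to gene length and to all counted fragments. All levels below are FPKM scaled between libraries by factors of 0.993 to 1.01, and a call is an adjusted p under 0.05 in limma over 9936 tested genes. B cell markers were high in all libraries, so the label held, with a summed level of 2604 to 2646 scaled FPKM under DMSO and 2134 to 2175 under lenvatinib, and 10 of 10 of them fell. Markers of other cells moved the opposite way: the summed level of T cell markers was 21.6 to 24.95 under DMSO and 97.4 to 102.8 under lenvatinib (6 of 8 tested rose), of natural killer and innate lymphoid markers 27.5 to 34.99 and 151 to 154 (7 of 7), and of colon epithelium markers 14.3 to 15.5 and 63.1 to 66.8 (8 of 8). Those of plasma cells ran from 244 to 249 and from 230 to 241 (1 of 6 rose, 1 fell), of macrophages and dendritic cells from 48.6 to 50.6 and from 55.5 to 63.2 (1 of 8 rose), of neutrophils from 6.53 to 7.63 and from 11.7 to 16.9 (2 of 3 rose), and of erythroid cells from 4.16 to 6.24 and from 9.64 to 14.95 (1 of 3 rose). None of the listed markers was at 0 in all libraries. A bulk library cannot tell fewer cells of a type from less RNA per cell, and the part of these other cells in the ribosomal protein differences was not tested.

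DMSO replicate 3 stood apart in the ribosomal protein genes. It was the lowest DMSO library for 72 of the 76 core genes and the lowest of all 6 libraries for 68 of them, while it was the lowest of its group for 33.4% of all tested genes. The median coefficient of variation of a core gene was 4.03% among the DMSO libraries, 1.43% between DMSO replicates 1 and 2, and 1.61% among the lenvatinib libraries. Counting error alone gave 0.325% to 1.03%, since these genes held 9408 to 94466 fragments each per library. Its summed marker level was 2604 scaled FPKM for B cells, against 2646 and 2645 in the other DMSO libraries, and 21.6 for T cells, against 24.3 and 24.95. Counts of calls and median changes of the family and of its subunits are given below with and without this library.

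Ribosomal protein genes made up a large share of the summed FPKM. That share was 25.95%, 25.98% and 24.98% in the DMSO libraries (25.6% ± 0.571, SD, n = 3) and 26.39%, 26.37% and 26.55% in the lenvatinib libraries (26.4% ± 0.0966, SD, n = 3). All lenvatinib libraries lay above all DMSO libraries, by 0.802 percentage points between the means and by 0.472 without DMSO replicate 3. As a share of counted fragments, which does not divide by gene length, the family rose from 8.89% ± 0.286 to 9.44% ± 0.0269 (SD, n = 3 each). Large subunit genes held 14.1% ± 0.285 of the summed FPKM under DMSO and 14.4% ± 0.0128 under lenvatinib, and small subunit genes held 11.507% ± 0.287 and 11.995% ± 0.0839 (SD, n = 3 each). Of the 100 genes with the highest mean FPKM, 62 were members, as were 33 of the top 50 and 3 of the top 10.

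The core genes did not have equal levels per length. Large subunit genes ran from 171 scaled FPKM for Rpl21 to 3363 for Rplp1, an acidic protein of the stalk, with a median of 1250, and 26 of 46 lay above 1000. Small subunit genes ran from 246 for Rps15a to 3884 for Rps29, a short zinc-binding protein, with a median of 1561, and 27 of 30 lay above 1000. After Rplp1 the highest large subunit genes were Rpl13a, Rpl32, Rpl41 and Rpl23a. After Rps29 the highest small subunit genes were Rps27, Rps23, Rps3a1 and Rps15.

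The gene lengths by which fragments were divided, recovered from the same steps, varied from 322 bases for Rps29 to 5136 bases for Rps15a, with a median of 802. The 8 core genes with lengths over 1900 bases were Rpl21, Rpl22, Rps15a, Rpl15, Rps20, Rpl19, Rpl5 and Rps24, and they included the 5 lowest levels among the core genes. Across the 76 core genes, level and length had a Spearman rho of -0.62, against -0.17 across all 9936 tested genes, given as a description because all genes share the same libraries. The mean number of fragments per gene spanned 8.17-fold, from 10387 for Rpl21 to 84905 for Rpl4, against 22.7-fold for the level per length. Core genes with longer lengths thus tended to have lower levels, which are fragments divided by that same length. The mean number of fragments itself had a Spearman rho of 0.29 with length over the 76 core genes. Both treatments of a gene were divided by the same length. Across genes the change between treatments still varied with length, with a Spearman rho of -0.27 over all 9936 tested genes and -0.17 over the core genes. The part of length in the family's changes was not tested.

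**Figure D1:**
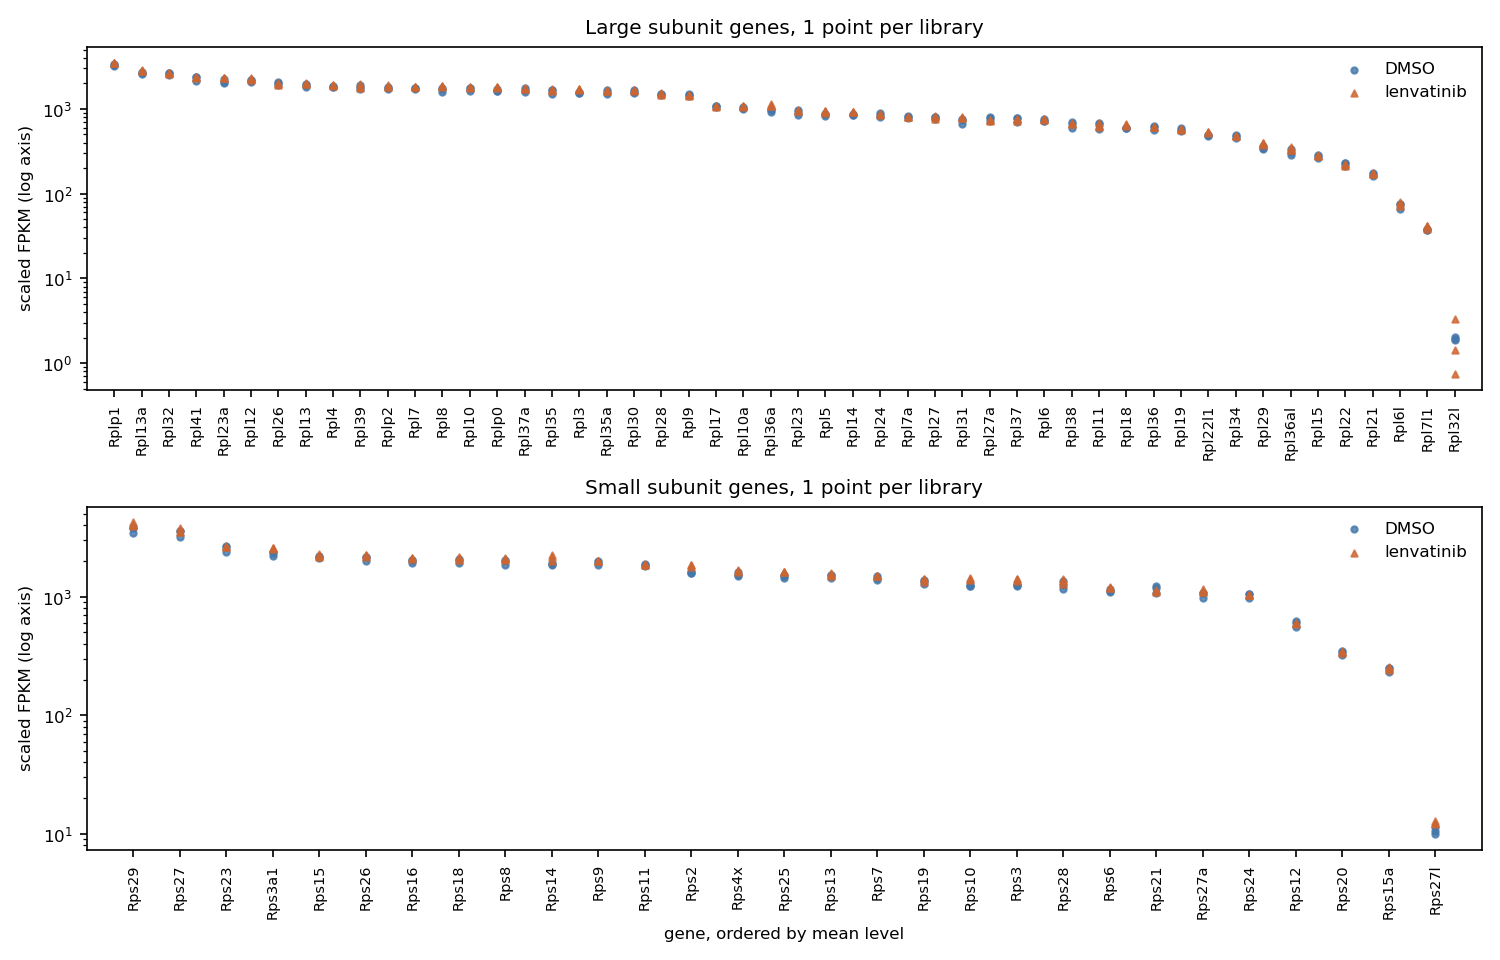
Scaled FPKM (log axis) of 79 tested ribosomal protein genes, large subunit above and small subunit below, ordered by mean level, with 1 point per library (circles DMSO, triangles lenvatinib). All core genes have mean levels between 171 and 3884, the points of a gene lie close together, and the paralogs and near copies Rpl6l, Rpl7l1, Rpl32l and Rps27l lie below.

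Members that passed the test were higher under lenvatinib, and most members did not pass. Of the 82 tested members, 19 rose (23.2%, against 10.5% of all tested genes called higher) and 0 fell (against 8.22% of all tested genes called lower) in limma. At an unadjusted p under 0.05, limma gave 30 higher (17.6% of all tested genes) and 0 lower (14.7%), while limma-voom on the recovered fragments, at an adjusted p under 0.05, gave 29 higher (12.7%) and 0 lower (12.3%). The 3 lenvatinib libraries all lay above the 3 DMSO libraries for 34 of the 82 (18.9% of all tested genes) and all below for 0 (18.2%). The log2 change was positive for 72 and negative for 10, with a median of 0.06 against 0.007 over all tested genes. Without DMSO replicate 3 it was positive for 55 and negative for 27, with a median of 0.02 against 0.005 over all tested genes.

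The differences were small. Among the 76 core genes, 57 changed by less than 0.1 on the log2 scale, in either direction, and the largest change was the 15.6% of Rps2. Without DMSO replicate 3, 19 members were called higher (7.82% of all tested genes), 18 of them the same, and 2 were called lower (5.77% of all tested genes), Rpl27a and Rps21. The number called depended on how limma estimated the variance: with neither a trend nor robust moderation, 2 members, Rps2 and Rps10, were called higher (7.5% of all tested genes) and 0 lower (6.51%). With quantile normalization 12 were called higher (9.22%), 9 of them among the 19, and 2 lower (9.39%), Rpl26 and Rps21.

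**Figure D2:**
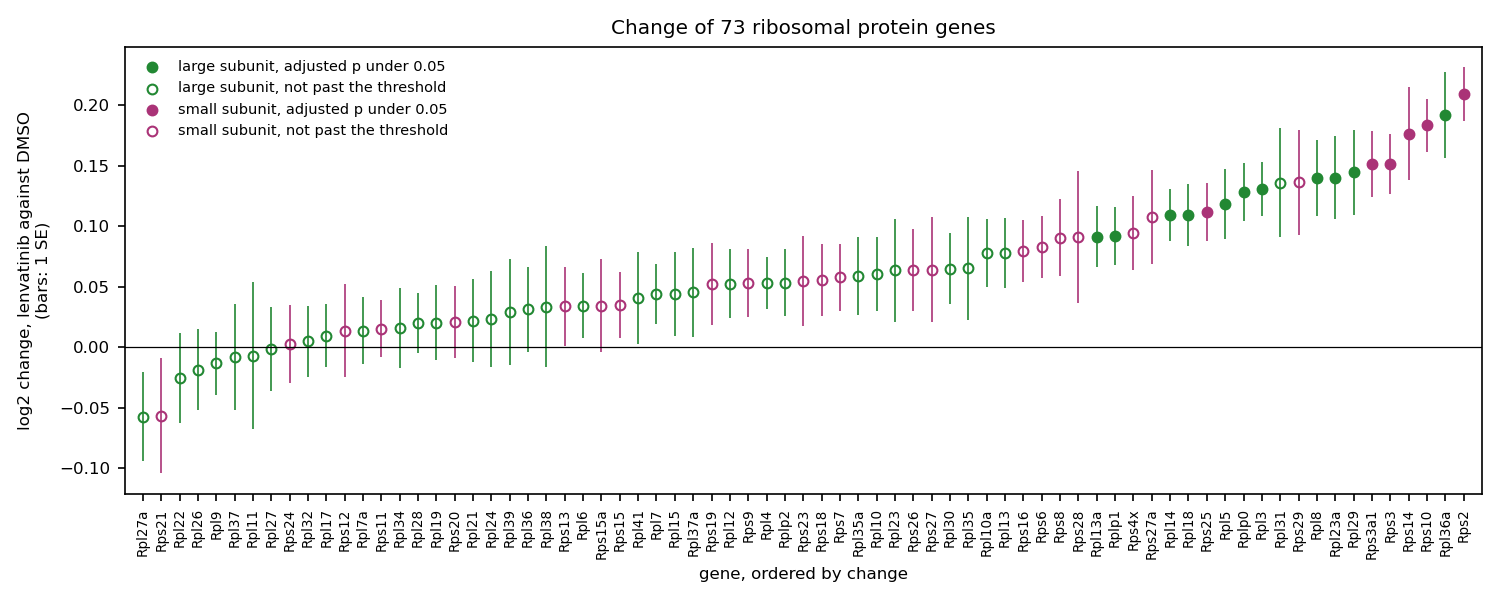
Log2 change (lenvatinib against DMSO, bars 1 SE) of 73 core ribosomal protein genes in order of change, green for large and purple for small subunit, filled where the adjusted p was under 0.05. The range runs from -0.06 (Rpl27a) to 0.21 (Rps2), and 17 points are filled, all above 0.

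Large and small subunit genes were then compared. Of the tested large subunit genes 12 of 51 rose, and of the small subunit genes 7 of 31 (10.5% of all tested genes), with median log2 changes of 0.05 and 0.06. Without DMSO replicate 3, 11 large and 8 small subunit genes were called higher (7.82% of all tested genes) and 1 of each lower (5.77%), and the medians fell to 0.015 and 0.029. Groups did not overlap, with lenvatinib above, for 16 of 46 core large and 15 of 30 core small subunit genes (18.9% of all tested genes). The mean log2 level over the 46 core large subunit genes was 10.094, 10.097 and 10.005 in the DMSO libraries and 10.112, 10.113 and 10.130 in the lenvatinib libraries. Over the 30 core small subunit genes it was 10.517, 10.522 and 10.424 under DMSO and 10.561, 10.559 and 10.582 under lenvatinib. Both means were higher in every lenvatinib library than in any DMSO library, and DMSO replicate 3 was the lowest in both.

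The difference between the subunits was steadier than either level. Small minus large was 0.423, 0.425 and 0.419 in the DMSO libraries (0.423 ± 0.0029, SD, n = 3) and 0.450, 0.446 and 0.453 in the lenvatinib libraries (0.450 ± 0.0032, SD, n = 3). DMSO replicate 3, low for both subunits, lay near the other DMSO libraries in this difference, and the groups did not overlap. With the paralogs and near copies included, the difference was 0.593, 0.592 and 0.591 under DMSO and 0.634, 0.627 and 0.612 under lenvatinib, again without overlap. No p is given for these means, since the members are not replicates. The difference of the median changes, small minus large over the tested members, was 0.012 and turned to -0.0024 with quantile normalization. The mean changes over the tested members were 0.052 for large and 0.084 for small subunit genes. With FPKM as deposited they were 0.070 and 0.102, and with summed FPKM made equal 0.025 and 0.057. With quantile normalization they were 0.023 and 0.027. The gap between the subunits thus narrowed with quantile normalization, but not with scalings that use a single factor per library.

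**Figure D3:**
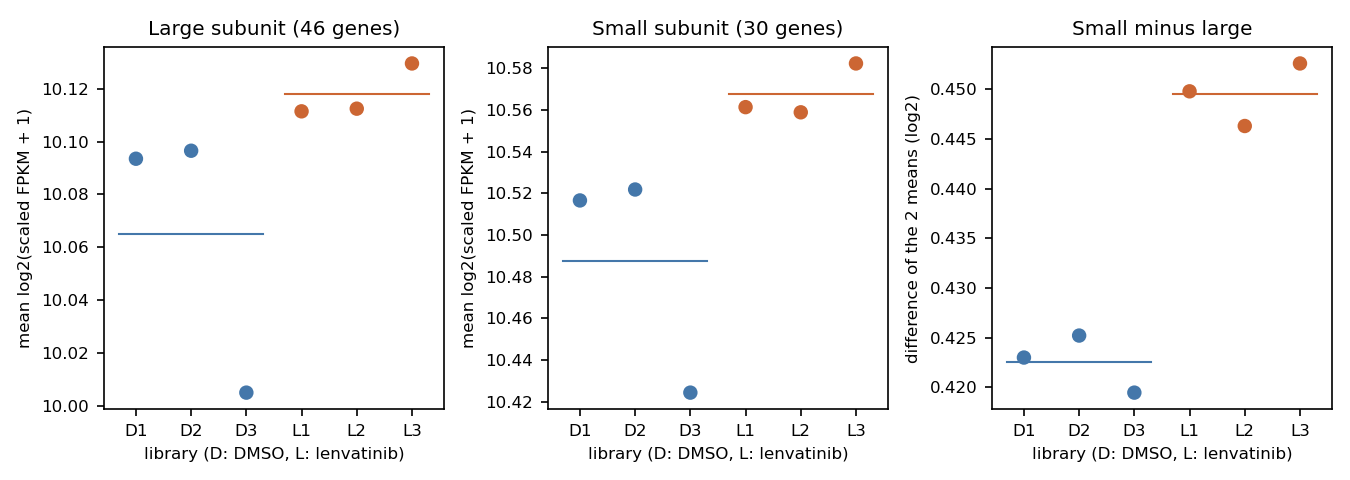
Mean log2(scaled FPKM + 1) per library over the 46 core large subunit genes (left) and the 30 core small subunit genes (middle), and small minus large (right), for DMSO libraries D1 to D3 and lenvatinib libraries L1 to L3, with lines at group means and vertical axes that do not start at 0. D3 is lowest in the left and middle panels, and the groups are apart in the right panel (0.419 to 0.425 against 0.446 to 0.453).

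In the small subunit, the genes listed for the mRNA entry channel were Rps2, Rps3 and Fau, which is not a full list of the proteins there. Of these 3, 2 rose (10.5% of all tested genes). Rps2 stood at 1569, 1599 and 1567 scaled FPKM in the DMSO libraries and at 1836, 1850 and 1788 in the lenvatinib libraries. The groups were well apart and DMSO replicate 3 was not unusual for this gene, so the change of 0.21 (SE 0.022, limma adjusted p = 0.000236) stayed at 0.20 without it. Rps3, which unwinds incoming mRNA with Rps2 and also acts in DNA repair, stood at 1254, 1257 and 1223 under DMSO and at 1405, 1395 and 1348 under lenvatinib. No lenvatinib library overlapped the DMSO range (0.15, SE 0.025, limma adjusted p = 0.00267). Fau, made as a fusion with a ubiquitin-like protein, was at 1470 ± 72.8 and 1486 ± 19.3 (SD, n = 3 each) and did not pass the test.

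At the mRNA exit, 2 of 5 rose (10.5% of all tested genes), Rps14 and Rpsa. Rps14, a protein of the platform whose shortage impairs red cell production, stood at 1932, 1871 and 1861 under DMSO and at 2148, 2007 and 2252 under lenvatinib. The groups did not overlap, but the lenvatinib libraries were spread wider than the DMSO libraries (0.18, SE 0.039, limma adjusted p = 0.0127). Rpsa, which also serves as a laminin receptor, was at 1433 ± 45.1 and 1542 ± 27.3 (SD, n = 3 each, 0.11, limma adjusted p = 0.0284), and its call ended without DMSO replicate 1 or any 1 of the lenvatinib libraries (highest adjusted p 0.101). Rps26 and Rps28 lay at changes of 0.06 and 0.09 with overlapping groups and did not pass the test. Rps3a1, beside the platform where the initiation factor eIF3 binds, stood at 2356, 2346 and 2206 under DMSO and at 2544, 2574 and 2550 under lenvatinib, with no overlap (0.15, SE 0.027, limma adjusted p = 0.00489).

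In the beak, the part of the head that moves when tRNAs enter, 1 of 3 rose (10.5% of all tested genes). Rps10 stood at 1230, 1237 and 1244 under DMSO and at 1413, 1377 and 1425 under lenvatinib. Its DMSO values were the closest of any called small subunit gene, and the groups were far apart against that spread (0.18, SE 0.022, limma adjusted p = 0.000503). Rps27a, made as a fusion with ubiquitin, was at 1036 ± 53.4 and 1116 ± 34.3 (SD, n = 3 each) and Rps12 at 592 ± 33.1 and 597 ± 6.45 (SD, n = 3 each), and neither passed the test.

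Away from these sites, Rps25, used by some viral mRNAs to start translation internally, also rose. It stood at 1521, 1490 and 1448 under DMSO and at 1603, 1614 and 1600 under lenvatinib, without overlap (0.11, SE 0.024, limma adjusted p = 0.0112). Rps6, the substrate of S6 kinase and a common readout of mTORC1 activity as a protein, was at 1126 ± 29.6 and 1192 ± 13.6 (SD, n = 3 each) and just missed the threshold (0.08, limma adjusted p = 0.0505). Rps29 had the highest level, at 3857, 3811 and 3439 under DMSO and 3957, 4010 and 4231 under lenvatinib, and its change of 0.14 did not pass (limma adjusted p = 0.0584).

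The stalk of the large subunit, which recruits the elongation factors, had 2 of its 4 genes called higher (10.5% of all tested genes). Rplp0, the scaffold of the stalk, stood at 1692, 1637 and 1618 under DMSO and at 1780, 1826 and 1798 under lenvatinib (0.13, SE 0.024, limma adjusted p = 0.00573). Rplp1, which binds the scaffold as a dimer with Rplp2, stood at 3343, 3262 and 3165 under DMSO and at 3436, 3458 and 3514 under lenvatinib. Neither gene overlapped between groups, and the Rplp1 call (0.09, SE 0.024, limma adjusted p = 0.0278) ended without DMSO replicate 2 or without any 1 of the lenvatinib libraries (highest adjusted p 0.0958). Rplp2 and Rpl12, at the base of the stalk, both had changes of 0.05 and did not pass.

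Rpl3 and Rpl8 are among the proteins that reach towards the peptidyl transferase centre, where peptide bonds form. Rpl4 and Rpl10, which also reach it, had changes of 0.05 and 0.06 and did not pass. Rpl3 stood at 1527, 1577 and 1556 under DMSO and at 1679, 1725 and 1700 under lenvatinib, with close values in both groups (0.13, SE 0.022, limma adjusted p = 0.00346). Rpl8 stood at 1740, 1705 and 1599 under DMSO and at 1828, 1875 and 1850 under lenvatinib (0.14, SE 0.031, limma adjusted p = 0.0146), and its call ended without lenvatinib replicate 2 (adjusted p 0.0587). Rpl36a, near the site from which spent tRNA leaves, had the largest change of the large subunit. Its levels were 988, 976 and 912 under DMSO and 1084, 1067 and 1134 under lenvatinib, without overlap (0.19, SE 0.036, limma adjusted p = 0.00572).

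At the rim of the peptide exit tunnel 1 of 8 rose (12.5%, near the 10.5% of all tested genes). Rpl23a, the docking site of the signal recognition particle, stood at 2222, 2090 and 2006 under DMSO and at 2319, 2342 and 2295 under lenvatinib, without overlap (0.14, SE 0.034, limma adjusted p = 0.0211). The call ended without DMSO replicate 2 or lenvatinib replicate 1 or 2 (highest adjusted p 0.074). Rpl31 had a similar change of 0.14 with no overlap but did not pass (limma adjusted p = 0.0661). Rpl17, Rpl19, Rpl22, Rpl26, Rpl35 and Rpl39 had changes of -0.03 to 0.07 with overlapping groups.

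The particle of 5S RNA with Rpl5 and Rpl11 is built apart from the rest of the subunit and can bind Mdm2 and thereby raise p53. Rpl5 stood at 864, 868 and 820 under DMSO and at 936, 931 and 902 under lenvatinib (0.12, SE 0.029, limma adjusted p = 0.0211), a call that ended without lenvatinib replicate 1 or 2 (highest adjusted p 0.0882). Rpl11 stood at 656, 688 and 579 under DMSO and at 610, 626 and 674 under lenvatinib, so the groups overlapped fully (-0.01, SE 0.060). The Rpl11 libraries were spread wider than those of Rpl5 in both groups. Rpl23, which can also bind Mdm2, was at 915 ± 60.3 and 954 ± 11.9 (SD, n = 3 each) and did not pass.

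The remaining large subunit calls were Rpl29, Rpl18, Rpl14 and Rpl13a. Rpl14 was at 852, 849 and 858 under DMSO and at 911, 923 and 927 under lenvatinib (0.11, SE 0.021, limma adjusted p = 0.00731), among the tightest pairs of groups. Rpl18 was at 595 ± 3.05 and 642 ± 16.0, Rpl29 at 349 ± 15.2 and 386 ± 9.17, and Rpl13a, which can leave the ribosome after interferon-gamma to silence inflammatory mRNAs, at 2643 ± 74.1 and 2815 ± 42.7 (SD, n = 3 each). Each of these 3 calls ended in at least 1 of the 6 fits that left out a library, with highest limma adjusted p-values of 0.062, 0.0747 and 0.139. Of all 19 calls, 10 held in each of those 6 fits: Rpl14, Rpl3, Rpl36a, Rplp0, Rps10, Rps14, Rps2, Rps25, Rps3 and Rps3a1. With quantile normalization only Rpl36a, Rps2 and Rps3a1 of these 10 were called, and Rps3 had the highest limma adjusted p, 0.616.

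Paralogs replace a standard protein in some ribosomes or tissues. Of 8 listed, 6 were in the table and 4 were tested. Rpl22l1, the paralog of Rpl22, stood at 486, 494 and 483 under DMSO and at 532, 534 and 515 under lenvatinib, with no overlap (0.11, SE 0.026, limma adjusted p = 0.0158), a call that ended without DMSO replicate 1 or lenvatinib replicate 1 or 2 (highest adjusted p 0.0686). Rpl22, an RNA-binding protein needed for normal lymphocyte development, stood at 227, 232 and 212 and at 214, 219 and 224, with overlapping groups (-0.03, SE 0.037). Rpl22l1 was thus at a higher level per length than Rpl22 in every library, in a pair whose lengths differed (486 and 2208 bases).

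Rps27l, a paralog of Rps27 that p53 induces, had the largest fitted change of all members and did not pass. It stood at 10, 10.5 and 11.4 under DMSO and at 12.5, 12.7 and 12.2 under lenvatinib, without overlap (0.21, SE 0.067, limma adjusted p = 0.0557), and it passed without DMSO replicate 3 (0.26, limma adjusted p = 0.0498). Rps27 itself was at 3432 ± 193 and 3586 ± 158 (SD, n = 3 each). Rpl7l1 was at 37.6 ± 0.730 and 40.3 ± 1.64 and Rpl36al at 312 ± 25.9 and 334 ± 14.9 (SD, n = 3 each), and neither passed. The muscle paralog Rpl3l had 1 fragment in 1 lenvatinib library and 0 in the other 5. Rpl39l, a paralog known from testis, had 8, 0 and 6 fragments in the DMSO libraries and 0, 1 and 0 in the lenvatinib libraries, too few to compare, and these 2 genes were the members not tested.

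Ribosomal protein genes have many processed pseudogenes, and fragments that match several copies may have been dropped or split, so each level is uncertain to that extent. The near copy Rpl6l stood at 66.7 to 76.1 scaled FPKM under DMSO and 72.1 to 80.7 under lenvatinib. Rpl32l, with 1.85 to 2.04 under DMSO and 0.741 to 3.29 under lenvatinib, was the most scattered tested member. The table also listed 14 genes named as pseudogenes or retrotransposed copies of members, none of which was called. The highest were Rpl37rt (139 ± 6.13 and 141 ± 7.82), Rps27rt (131 ± 13.8 and 136 ± 12.1) and Rpl34-ps1 (109 ± 16.9 and 102 ± 12.3, SD, n = 3 each), and the rest lay at 3.12 or lower in both group means.

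To see which members changed against the rest of the family, the libraries were rescaled to the ribosomal protein genes themselves, an analysis added after the data were seen. By construction this left the family itself with almost no median change (-0.0038, with 38 members positive and 44 negative). It also moved the median change of all tested genes from 0.007 to -0.048, and the shares of all tested genes given next carry that shift. Relative to the family, 8 members were higher (6.28% of all tested genes) and 4 were lower (11.3% of all tested genes) in limma. Of the 8, 6 were small subunit genes, among them Rps2, Rps10, Rps14, Rps3 and Rps3a1, and 2 were large subunit genes, Rpl36a and Rpl8. Those lower included Rpl26, which can bind p53 mRNA, and Rpl27a of the large subunit, and Rps21 of the small subunit.

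Rps2 stood at 1.28, 1.30 and 1.36 times the geometric mean of the core genes in the DMSO libraries and at 1.47, 1.48 and 1.41 times in the lenvatinib libraries. The groups did not overlap, and DMSO replicate 3 was here the highest of its group (0.15, SE 0.028, limma adjusted p = 0.00307 after rescaling). Rpl36a stood at 0.806, 0.795 and 0.792 times and at 0.867, 0.854 and 0.895 times (0.13, SE 0.026, limma adjusted p = 0.00406). Rps3a1 stood at 1.92, 1.91 and 1.92 times and at 2.04, 2.06 and 2.01 times (0.09, SE 0.020, limma adjusted p = 0.00838). These 3 genes passed in all 6 fits that left out a library, and the other 9 lost the call in at least 2 of them.

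Rpl27a stood at 0.651, 0.633 and 0.625 times the core mean under DMSO and at 0.582, 0.592 and 0.581 times under lenvatinib, all lower (-0.12, SE 0.028, limma adjusted p = 0.0106). In scaled FPKM the same gene stood at 798, 778 and 719 under DMSO and at 728, 739 and 736 under lenvatinib, with DMSO replicate 3 alone making the ranges overlap. Without that library it was called lower in the first scaling too (-0.10, limma adjusted p = 0.0171). Rps21 had the same pattern, at 1186, 1230 and 1062 and at 1107, 1095 and 1136, and was also called lower without DMSO replicate 3 (-0.12, limma adjusted p = 0.0143). Leaving out 1 library at a time, the counts relative to the family ranged from 3 to 9 higher and from 0 to 3 lower, and the direction of each of the 12 genes held in all 6 fits. Without DMSO replicate 3 there were 9 higher and 3 lower.

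**Figure D4:**
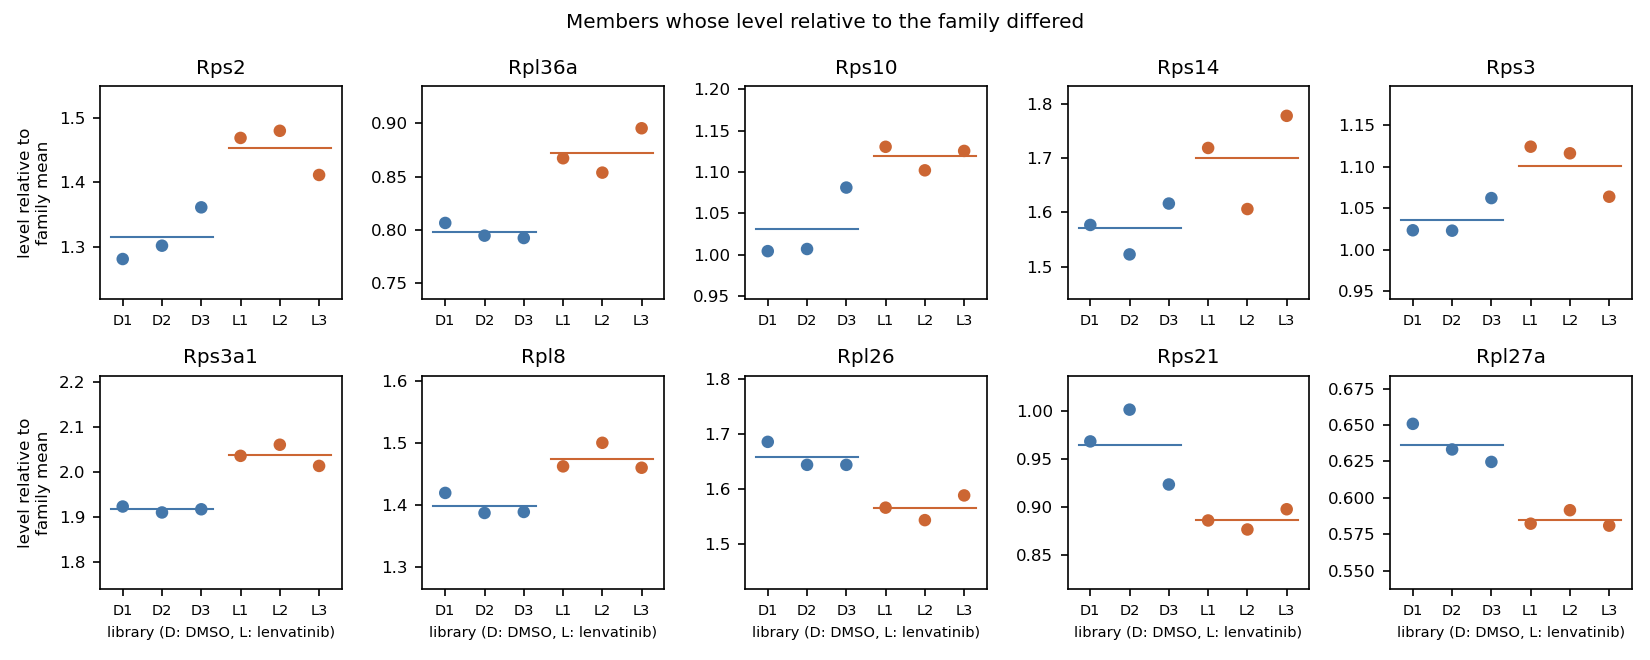
Level of 10 of the 12 members called relative to the family, as a ratio to the geometric mean of the 76 core genes, in DMSO libraries D1 to D3 and lenvatinib libraries L1 to L3, with lines at group means and axes that do not start at 0. The groups overlap for Rps14 and are apart in every other panel, narrowly for Rps3. The last 3 panels hold members whose ratio was lower under lenvatinib.

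The start sites of members at both ends of the range are printed with their longest run of C or T letters. The stretch from which TOP mRNAs take their name lies at the start of the mRNA, and the longest run need not be that stretch. Start site windows from RefSeq on GRCm38.p6 matched 63 members with 75 windows of 250 bases before and 50 after the start. A run of at least 8 C or T letters on the gene's strand, within 30 bases on either side of the start, was in 50.7% of members' windows and in 22.9% of all 32851 windows. Searched on both strands of the whole window, CGGAAG, the core of ETS factor sites, was in 60.0% of members' windows and 16.9% of all, CTTTCC in 48.0% and 26.6%, and CTCGCGAG in 10.7% and 0.919%. The E-box CACGTG, bound by Myc among others, was in 10.7% and 7.15%, and the TATA box form TATAAA in 10.7% and 13.6%. These matches describe letters only, share members with several windows, and were not set against the changes by a test.

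Below are 60 bases per gene, 40 before and 20 from the annotated start on, 5′ to 3′ on the gene's strand, with the longest run of C or T letters in capitals. The first 4 are among the core genes with the largest changes and a single window, and the last 4 are among those with the smallest. The choice also left out the genes of a chromosome, so these are not simply the most extreme genes at each end. Rps14, whose change was larger than that of Rps3, is not shown. They lie at chr17:24720023-24720082 (plus strand), chrX:134585614-134585673 (plus), chr17:27635225-27635284 (minus), chr7:99483690-99483749 (minus), chr15:5116573-5116632 (plus), chr5:65391412-65391471 (minus), chr11:68901526-68901585 (plus) and chr7:109519155-109519214 (plus).
Rps2: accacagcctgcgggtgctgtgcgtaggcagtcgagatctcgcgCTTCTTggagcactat
Rpl36a: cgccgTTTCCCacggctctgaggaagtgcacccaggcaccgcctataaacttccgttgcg
Rps10: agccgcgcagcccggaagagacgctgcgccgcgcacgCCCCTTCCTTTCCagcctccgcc
Rps3: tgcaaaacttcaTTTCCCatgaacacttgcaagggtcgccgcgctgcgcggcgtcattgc
Rpl37: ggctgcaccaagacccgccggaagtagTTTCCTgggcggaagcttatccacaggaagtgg
Rpl9: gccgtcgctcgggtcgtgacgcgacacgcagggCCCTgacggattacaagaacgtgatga
Rpl26: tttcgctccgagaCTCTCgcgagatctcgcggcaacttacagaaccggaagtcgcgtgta
Rpl27a: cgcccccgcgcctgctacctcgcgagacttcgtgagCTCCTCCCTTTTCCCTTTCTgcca
The longest runs were 20 letters in Rpl27a, whose ratio to the family was lower, and 13 letters in Rps10, which rose. In the other 6 the longest run had 4 to 6 letters. In Rpl36a, Rps3, Rpl37, Rpl9 and Rpl26 it lay wholly before the annotated start, thus outside the annotated mRNA. Long and short runs thus occurred at both ends of the range of changes, in a set too small to compare.

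Other genes of translation were read from lists in the same fit. Over all tested genes 10.5% rose and 8.22% fell, and without DMSO replicate 3 these shares were 7.82% and 5.77%. Of 20 further mRNAs of the TOP class, 8 rose and 1 fell, with a median change of 0.08, and without DMSO replicate 3 the counts were 7 and 1 with a median of 0.06. They included Npm1, a nucleolar protein of ribosome assembly (479 ± 8.23 and 546 ± 2.92, 0.19, limma adjusted p = 0.000675), and the elongation factors Eef2 (1242 ± 14.8 and 1397 ± 19.5, 0.17, limma adjusted p = 0.000743) and Eef1a1 (6337 ± 72.2 and 6785 ± 88.6, 0.10, limma adjusted p = 0.00666; SD, n = 3 each). The gene that fell was Eif3f, a subunit of eIF3, from 279 ± 5.56 to 257 ± 5.35 (SD, n = 3 each, -0.12), a call that ended without lenvatinib replicate 1 or 3 (highest limma adjusted p 0.072). The Eef1a1 call ended without lenvatinib replicate 1 (limma adjusted p 0.0504). The next list left out initiation factors already counted in the TOP class, among them Eif3f, which fell, and Eif4b, which rose. Of its 24 initiation factors 11 rose and 0 fell (limma, also 0 at an unadjusted p under 0.05 and 0 by limma-voom), with a median of 0.13. Without DMSO replicate 3, 8 were called, and Eif3i, Eif3j1 and Eif4h were not. Eif5a, which helps ribosomes past stalling sequences, had the largest change of that list (197 ± 4.12 and 250 ± 5.50, SD, n = 3 each, 0.34, limma adjusted p = 5.73e-05), followed in p by the helicase Eif4a1 (0.24, limma adjusted p = 0.000606) and by Eif6, which keeps the large subunit from joining too early (0.26, limma adjusted p = 0.0044).

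The genes that control TOP mRNAs lay on both sides of 0. Of 15 tested genes of mTORC1 and TOP mRNA control, 1 rose and 0 fell (limma, with 1 lower at an unadjusted p under 0.05 and 1 by limma-voom), with a median of -0.01 and changes from -0.17 (Eif4ebp3) to 0.18. The one that rose was Rheb, the small GTPase that switches mTORC1 on (61.2 ± 3.63 and 69.6 ± 1.42, SD, n = 3 each, 0.18, limma adjusted p = 0.0246), and it was called in only 1 of the 6 fits that left out a library (without DMSO replicate 3, limma adjusted p = 0.0783). Larp1 was at 39.6 ± 1.05 and 37.0 ± 0.703 (SD, n = 3 each) and did not pass after adjustment (limma adjusted p = 0.149). Of 8 dedicated chaperones that escort single ribosomal proteins, 2 rose, Aamp (39.6 ± 1.61 and 47.0 ± 2.02, SD, n = 3 each, 0.24, limma adjusted p = 0.00914) and Grwd1, the chaperone of Rpl3 (18.1 ± 1.40 and 21.2 ± 0.837, SD, n = 3 each, 0.22, limma adjusted p = 0.0496). Without DMSO replicate 3 only Aamp was called, with Grwd1 at a limma adjusted p of 0.149, and Grwd1 was called in 1 of the 6 fits that left out a library. Of 9 genes of ribosome recycling and rescue, Rnf10, a ligase that marks Rps2 and Rps3 on stalled subunits with ubiquitin, rose (44.0 ± 0.244 and 49.7 ± 1.04, SD, n = 3 each, 0.17, limma adjusted p = 0.014; 0.0511 without lenvatinib replicate 2), and Nemf, which acts on peptides stuck on large subunits, fell (30.8 ± 0.410 and 26.4 ± 0.657, SD, n = 3 each, -0.22, limma adjusted p = 0.0103).

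**Figure D5:**
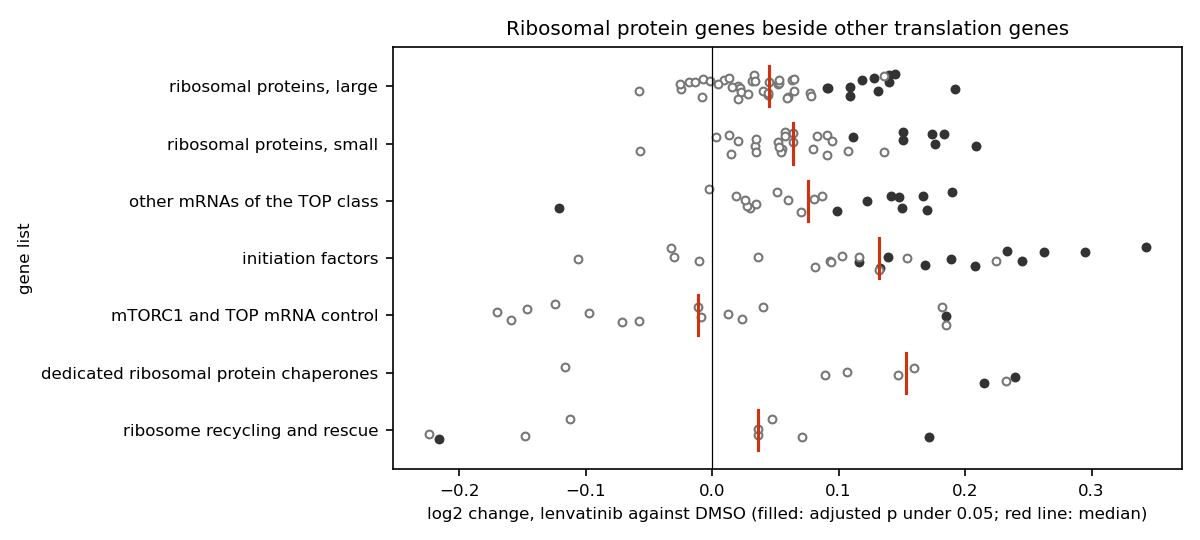
Log2 change (lenvatinib against DMSO) of core ribosomal protein genes and of 5 lists of other translation genes, 1 point per tested gene, filled where the adjusted p was under 0.05, with a red line at each median. The medians run from -0.01 for mTORC1 and TOP mRNA control to 0.15 for the chaperones, and members keep to a narrower range than the other lists.

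Across the 76 core genes, the change had a Spearman rho of 0.32 with level and of -0.17 with gene length, and across all 9936 tested genes a rho of -0.27 with length. These are descriptions, since all genes share the same 6 libraries and depth.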

How the data were processed

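RNA of sorted mouse colon B cells was sequenced in 3 DMSO and 3 lenvatinib libraries. Per the labels' protocols, TRIzol was used for extraction and the VAHTS Universal V10 kit for library construction. Counting used HTSeq and build GRCm39, per the submitters' processing notes. Aligner, annotation, HTSeq version, strand setting and the handling of fragments that match several places are not given in the sources used here. As values, the authors deposited FPKM for 20591 gene symbols in 6 columns, which the sample descriptions name, and 0 columns were left unused.

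FPKM was scaled by median-of-ratios factors, and genes at 1 or more scaled FPKM in at least 3 of 6 libraries were tested as log2(scaled FPKM + 1) in limma 3.58.1 under R 4.3.3, with treatment as the only term, trend and robust moderation, two-sided tests and Benjamini-Hochberg adjustment over 9936 genes at 0.05. Fold changes on this scale understate those of low genes. Each library's depth and each gene's length were recovered from the steps of low FPKM, and whole fragments came out, within 1e-05, for 99.95% of the 19715 genes with any value. Replicates differed beyond counting error (chi-square per degree of freedom 6.85 to 9.45), so none was counted as a copy. The fit was tested on simulated data.

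The members and lists were chosen with earlier results of these data known, and no test was made over the list alone. Named genes were every member called, the 5 largest and 5 smallest changes, the 5 highest levels of each subunit, members under the filter, all members of the role and paralog lists, and up to 4 genes with the smallest p of each other list; members named for a change after rescaling, Rpl31 and Rps6 were added after their values were seen. Results of a few named genes are not reported here, though counts include them. Alternatives were other pseudocounts, filters, scalings, moderation, library weights, a replicate block and each library left out. Scaling to the ribosomal protein genes, limma-voom on recovered fragments, the share of fragments and the core set were added after the data were seen.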

Additional observations from a re-analysis of the deposited data

How the results depend on the processing

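Of 911 values of the 48 named members under the alternatives, 814 kept their side of the threshold, 75 lost the call and 22 gained one. When called, 0 changed direction. Changes that were not called could switch sign and still count as kept. Rpl17, for example, changed by 0.0095 in the main fit and by -0.013 without DMSO replicate 3. Members called higher (19) numbered 11 with no filter on low values, 30 with FPKM as deposited, 12 with quantile normalization, 2 with neither trend nor robust moderation, 8 when scaled to ribosomal protein genes, 29 with limma-voom, and 11 to 19 with each library left out. Members called lower (0) numbered 2 with quantile normalization, 4 when scaled to the family, and 0 to 2 with each library left out. All genes called higher (1039) numbered 624 when scaled to the family and 673 to 827 with each library left out. Scaling to the family turned the median change of large subunit genes to -0.00911 and their mean to -0.00919. It gave a median of 0.0024 and a mean of 0.023 for small subunit genes. With quantile normalization the mean was 0.023 for large and 0.027 for small subunit genes. Small minus large in median change was 0.012, and it was -0.0024 with quantile normalization, 0.013 with limma-voom and 0.015 to 0.027 with each library left out. Relative to the family, 3 to 9 were called higher and 0 to 3 lower with each library left out. Scaling to the family sets the median change of its members near 0 by construction. The cause of the other shifts was not tested. With a replicate block 17 members were called; same-numbered libraries had correlations of -0.0067, 0.0065 and -0.0053, so the numbers did not pair the libraries, and only replicate 2 correlated best with its own number. Groups of 3 limit all of these counts, while counting error was small for core genes.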
